A study of Mus musculus with 4 samples.

Results

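B220+CD43- cells were set against B220+CD43+ cells from the bone marrow of mice lacking both Btg1 and Btg2 (Btg1-/-;Btg2-/-, called dKO), to describe the change between early and later B-lineage stages in marrow without these genes. All 8495 genes that were above background on at least 1 of the 2 dKO arrays were compared, of 17916 genes on the array (11481 of 25697 probes). Of these genes, 7308 were above background on both dKO arrays, 242 on the CD43- array only and 945 on the CD43+ array only. A gene was taken as above background, or detected, where its detection score exceeded 0.99.

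The series holds 4 arrays, 1 for each group, and its design states that there were no replicates. The groups were dKO CD43- cells, labelled as Hardy fractions D, E and F, dKO CD43+ cells, labelled as fractions A, B and C, and the same sorts from wild-type (WT) marrow. All came from strain C57BL6/J and were sorted by flow cytometry from marrow of the hind-limb bones, so every group had been selected for B220. Not given in the sources used here were the animals' age, sex and number and the way the alleles were made.

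Hardy fractions order mouse B-cell development by surface markers. Cells that keep CD43 include pre-pro-B and pro-B cells, which rearrange the immunoglobulin heavy chain and pair it with a surrogate light chain, and cells that have lost CD43 include small pre-B cells, which rearrange the light chain, and immature and mature B cells, which carry a complete receptor. BTG1 and BTG2, paralogues that restrain proliferation, recruit the CCR4-NOT deadenylase complex, which shortens the poly(A) tails of mRNAs.

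A difference is given as the log2 value in CD43- cells minus that in CD43+ cells, so a positive value means a higher level in CD43- cells. Signals are the deposited bead intensities, each followed by the SE over the beads of that probe, and the bead SE covers the measurement on the chip and nothing between animals. With 1 array a side no difference was tested, and genes were called by size alone, at 2-fold. For genes above background on a single array of the pair, the fold is a lower bound, written as "at least": the dim side was set to its own value or, if higher, to the smallest value any detected probe had there. Across the 4 arrays 39.5% to 43.3% of probes were detected (7550 genes in dKO CD43- cells, 8253 in dKO CD43+ cells), and the mean signal was 648.1 in dKO CD43- cells and 662.1 in dKO CD43+ cells, against 555.2 in WT CD43- cells and 550.7 in WT CD43+ cells.

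The sort markers and the deleted genes were read first. Spn, which encodes CD43, gave a signal of 157 ± 6.50 in dKO CD43- cells, not above background, and of 179.6 ± 8.90 in dKO CD43+ cells, so it was detected on the side the sort would place it but close to background on both. Ptprc, the gene of CD45 and its B220 form, gave 455 ± 20.9 in dKO CD43- cells and 572 ± 30.6 in dKO CD43+ cells, a difference of -0.32 (bead SE 0.14). Btg1 gave 8115 ± 266 in dKO CD43- cells and 3459 ± 102 in dKO CD43+ cells, against 19425 ± 643 in WT CD43- cells and 8610.2 ± 276 in WT CD43+ cells. The Btg1 signal was thus lower on each dKO array than on the WT array of the same fraction and still well above background, and it is not known here whether the probe lies inside or outside what was deleted. Within dKO marrow Btg1 was 2.52-fold higher in CD43- cells, and another probe gave signals of 5713 in dKO CD43- cells and 2388 in dKO CD43+ cells. Btg2 was not detected on any array, with signals of 138 and 141 in dKO CD43- and CD43+ cells and 142 in WT CD43- cells and 156 in WT CD43+ cells.

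In dKO marrow, CD43- cells had higher levels of surface receptors of maturing B cells, MHC class II genes and components of B-cell receptor signalling. CD43+ cells had higher levels of natural killer (NK) cell, T-cell and dendritic cell genes, of the template-independent polymerase gene Dntt and of the surrogate light chain gene Vpreb1. In all, 515 of 8495 genes were higher by 2-fold or more in dKO CD43- cells (6.06%) and 901 lower by as much (10.6%), with a median difference over all genes of 0.05. At 8-fold the counts were 24 higher and 128 lower, and at 16-fold 6 higher and 40 lower. With genes detected on 1 array counted at their bound, 458 genes were at least 2-fold higher and 683 lower. Another detected probe was at hand for 295 called genes, of which 288 pointed the same way with it and 205 were also at least 2-fold different there in that direction.

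Among the genes with the largest positive differences, Fcer2a, which encodes the low-affinity IgE receptor CD23, gave 1939 ± 58.1 in dKO CD43- cells and 164 ± 6.38, not above background, in dKO CD43+ cells. This made it at least 40.8-fold higher, the largest positive difference by bound. Its other 2 probes were also detected in dKO CD43- cells only, with signals of 374 and 310 in dKO CD43- cells, against 144 and 137 in dKO CD43+ cells. Klhl14, a member of the Kelch-like family, gave 953 ± 31.5 in dKO CD43- cells against 169 ± 5.99 in dKO CD43+ cells and was at least 18.5-fold higher. Reln, the gene of the secreted glycoprotein reelin, gave 4239 ± 122 in dKO CD43- cells and 375 ± 15.1 in dKO CD43+ cells, a 17.7-fold difference. Il2ra, encoding CD25, which marks small pre-B cells, gave 766 ± 27.2 in dKO CD43- cells and 185 ± 6.15 in dKO CD43+ cells and was 11.5-fold higher. Scd1, a fatty acid desaturase, was 11.6-fold higher, with signals of 6259 in dKO CD43- cells and 697 in dKO CD43+ cells. Genes that are not usual for B cells were among them too: Prg3, an eosinophil granule protein, was 18.3-fold higher, Gh, encoding growth hormone, at least 17.2-fold, and Prm1, a sperm chromatin protein, at least 11.8-fold.

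In the other direction, Ccl5, a chemokine of NK and T cells, gave 267 ± 13.2 in dKO CD43- cells and 10699 ± 374 in dKO CD43+ cells and was 72.9-fold lower in CD43- cells. Nkg7, a cytotoxic granule protein, was 67.5-fold lower, with signals of 189.9 in dKO CD43- cells and 4751 in dKO CD43+ cells. Thy1, a T-cell surface glycoprotein, gave 215 ± 8.70 in dKO CD43- cells and 4441 ± 129 in dKO CD43+ cells, a 44.4-fold difference. Ccnd1, encoding cyclin D1, gave 522 ± 17.1 in dKO CD43- cells and 9294 ± 346 in dKO CD43+ cells, a 22.8-fold difference, and its other 2 detected probes differed by -4.31 and -4.56. D13Ertd608e, an expressed sequence, was 24.0-fold lower, and Fyb, an adaptor of T-cell receptor signalling, 21.2-fold lower. Klra4, Klra7, Klre1, Ctsw and Xcl1, which stand with Ccl5 and Nkg7 on the list of NK-cell markers, and Cd3d, which stands with Thy1 on that of T-cell markers, were also among the 15 most negative genes.

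**Figure D1:**
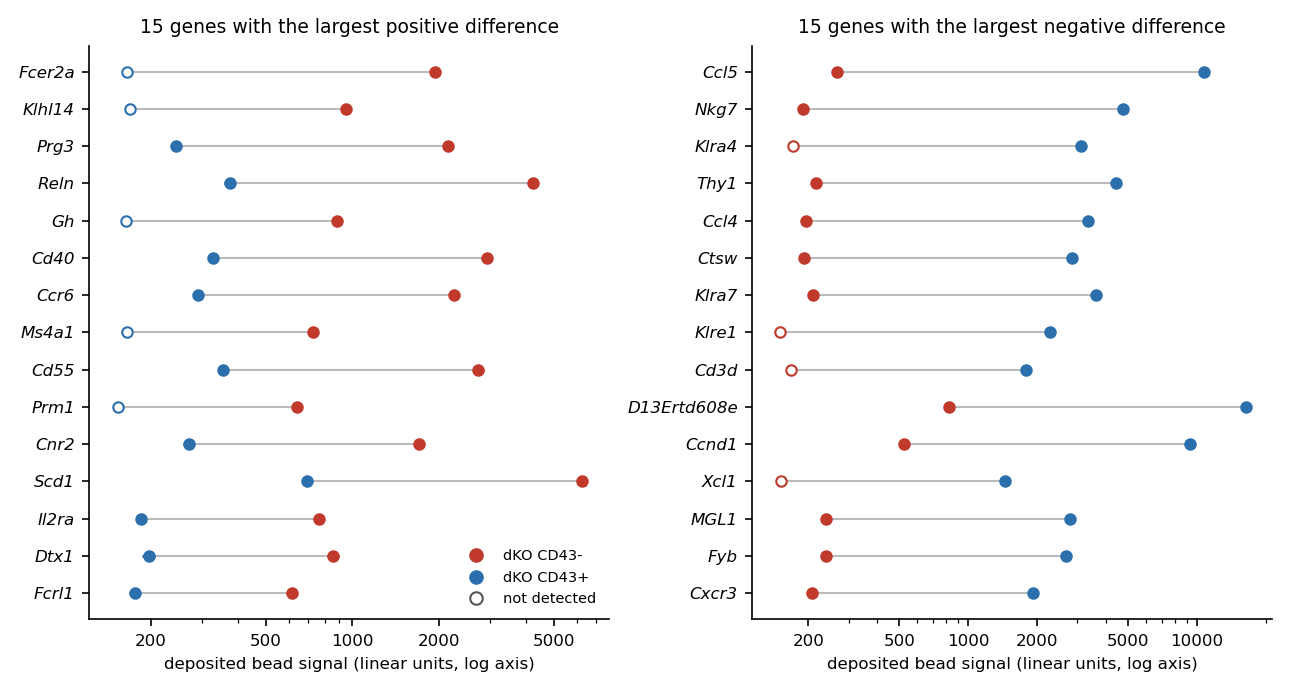
Deposited bead signal (linear units on a log axis) of the 15 genes with the largest positive difference (left) and the 15 with the largest negative difference (right) in dKO marrow. Red points are CD43- cells and blue points CD43+ cells, open points were not above background, and bars, mostly smaller than the points, are the bead SE. Ccl5 lies at 267 in CD43- and 10699 in CD43+ cells, Fcer2a at 1939 in CD43- and 164 in CD43+ cells.

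Surface receptors of maturing B cells were mostly higher in dKO CD43- cells. Of 25 detected members, 16 were at least 2-fold higher and 1 lower, with a median difference of 1.19 (all genes 0.05). Cd40, a costimulatory receptor of the TNF receptor family, gave 2945 ± 87.2 in dKO CD43- cells and 328 ± 12.4 in dKO CD43+ cells, a 14.9-fold difference. Ms4a1, encoding CD20, gave 728 ± 26.2 in dKO CD43- cells and was not above background in dKO CD43+ cells (165 ± 7.47), and was at least 13.7-fold higher. Cd55, a regulator that protects cells from complement, gave 2737 ± 119 in dKO CD43- cells and 354 ± 12.0 in dKO CD43+ cells, and Cd22, an inhibitory coreceptor, 3702 ± 134 in dKO CD43- cells and 710.1 ± 20.7 in dKO CD43+ cells. They were 12.2-fold and 6.59-fold higher in CD43- cells. Cd83, Cnr2 (the peripheral cannabinoid receptor) and Fcrl1 had differences of 3.11, 3.55 and 3.38. Cd52, Il10ra and Tnfrsf13b lay within 2-fold, at 0.31, 0.45 and 0.42. The member that was lower in CD43- cells was Cd180, a Toll-like receptor homologue, at -1.25 (chosen after its value was seen).

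Genes of B-cell receptor signalling followed with smaller differences, 7 of 23 at least 2-fold higher and 1 lower, and a median of 0.52. Cd79b, a signalling chain of the receptor, gave 27187 ± 1015 in dKO CD43- cells and 10887 ± 326 in dKO CD43+ cells, a difference of 1.42 (bead SE 0.07). Another detected Cd79b probe gave a larger difference, 2.09, with signals of 18571 in dKO CD43- cells and 4783 in dKO CD43+ cells. Blk, a Src-family kinase of B cells, was at 1.64 and the kinase Syk at 1.63. Rasgrp3, an exchange factor for Ras, gave 1496 ± 68.7 in dKO CD43- cells and 329.6 ± 14.6 in dKO CD43+ cells, the largest positive difference of these genes (7.15-fold). The adaptor Dok3 was 4.53-fold higher. Dapp1, Inpp5d and Vav2 differed least, by 0.04, 0.03 and -0.06. Fgr, a Src-family kinase that myeloid and NK cells also express, went the other way, with 184 ± 9.99 in dKO CD43- cells and 678 ± 45.2 in dKO CD43+ cells (8.55-fold lower).

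Of the surrogate light chain genes, Vpreb1 gave 5053 ± 158 in dKO CD43- cells and 14509 ± 550.3 in dKO CD43+ cells and was 3.09-fold lower in CD43- cells. Vpreb3, a related chain that persists beyond the pro-B stage, gave 25851 ± 701 in dKO CD43- cells and 11192 ± 294 in dKO CD43+ cells and was 2.37-fold higher. Vpreb2 was not above background on either dKO array (127 in CD43- and 159.8 in CD43+ cells), and Igll1 was not analysed here. The pair that was measured thus lay on opposite sides.

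Genes that cut and rejoin V, D and J segments were mostly within 2-fold, and 2 of 12 were higher by 2-fold or more in dKO CD43- cells and 1 lower (median 0.52). Dntt, encoding the terminal transferase that adds untemplated nucleotides at heavy chain joints, gave 333 ± 14.5 in dKO CD43- cells and 2684 ± 123 in dKO CD43+ cells and was 11.7-fold lower in CD43- cells. Polm, a polymerase that fills ends at light chain joints, gave 424 ± 14.4 in dKO CD43- cells and 167 ± 6.36, not above background, in dKO CD43+ cells, and was at least 6.87-fold higher. These related polymerases therefore lay at opposite ends of the list. Lig4, the ligase of end joining, was at 1.69 (bead SE 0.23). The recombinase genes Rag1 and Rag2 were within 2-fold, at 0.89 and 0.48, as were Xrcc6 (0.78) and Hmgb2 (0.56).

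Of 27 B-lineage transcription factors 11 were higher by 2-fold or more in dKO CD43- cells and 3 lower, with a median of 0.69. Ebf1, which establishes the B-cell program, gave 1264 ± 93.7 in dKO CD43- cells and 730.1 ± 35.4 in dKO CD43+ cells, a difference of 1.01 (bead SE 0.15) that lies just past the 2-fold threshold. Pax5, which maintains B-cell identity, was detected in dKO CD43- cells only, at 212 ± 8.48 against 133 ± 5.15 in dKO CD43+ cells, and was at least 2.02-fold higher. Irf4, which acts at the transition to small pre-B cells, gave 5356 ± 207 in dKO CD43- cells and 1514 ± 57.6 in dKO CD43+ cells (3.92-fold higher). Pou2af1, a coactivator of octamer-binding factors, Pou2f2, one of these factors, and Bach2, a repressor of plasma-cell genes, were at 1.84, 1.83 and 1.73. The 3 factors that were lower were Id2, Irf8 and Tcf4. Id2, an inhibitor of E proteins, gave 187 ± 7.23 in dKO CD43- cells and 764 ± 31.3 in dKO CD43+ cells (9.63-fold lower). Irf8 was at -1.87 and Tcf4, encoding E2-2, at -1.74. Dendritic or innate cells express these genes too, and whether such cells contribute to the differences was not tested. Spib, which both B cells and plasmacytoid dendritic cells express, was higher, at 1.02. Myb, Nfatc1 and Zeb2 were at 0.04, -0.02 and 0.07.

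EBF1 binds a palindromic core, CCCNNGGG, which reads the same on both strands. In RefSeq promoters of build GRCm38.p6, from 250 bases before to 50 after each start, it occurred in 20.4% of the promoters of genes higher by 2-fold or more in dKO CD43- cells (102 of 500, from 378 matched genes) and in 19.1% of those of genes at least 2-fold lower (169 of 886, from 673). The share was 17.2% over the promoters of all genes compared (1469 of 8526) and 13.7% over all promoters of the table (4491 of 32851), so both called sets were near each other and a little above the genes compared. GC content was 58.6% and 58.9% in the called sets, 60.4% in the genes compared and 53.8% in all. A match is a description of the letters and not a binding site. The core was found on both sides and missing on both: among higher genes Cd22, Cd55 and Polm hold it and Fcer2a, Cnr2, Rasgrp3 and Fcrl1 do not, and among lower genes Id2 holds it and Vpreb1 and Dntt do not. The 250 bases before the start are given for 4 higher genes (Cd22, Cd55, Polm, Fcrl1) and 2 lower ones (Id2, Vpreb1) to show these cases, chosen after their values were seen. Fcrl1 lies on the plus strand and the others on the minus strand, and all are written 5′ to 3′ along the gene, with the core in capitals, at chr7:30879029-30879278 (Cd22), chr1:130462745-130462994 (Cd55), chr11:5838017-5838266 (Polm), chr3:87376137-87376386 (Fcrl1), chr12:25096093-25096342 (Id2) and chr16:16869256-16869505 (Vpreb1).
Cd22: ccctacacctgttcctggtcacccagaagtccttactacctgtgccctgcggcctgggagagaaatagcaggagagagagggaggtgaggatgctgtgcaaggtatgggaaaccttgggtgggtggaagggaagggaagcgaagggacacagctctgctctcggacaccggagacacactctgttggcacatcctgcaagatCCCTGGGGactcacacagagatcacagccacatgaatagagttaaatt
Cd55: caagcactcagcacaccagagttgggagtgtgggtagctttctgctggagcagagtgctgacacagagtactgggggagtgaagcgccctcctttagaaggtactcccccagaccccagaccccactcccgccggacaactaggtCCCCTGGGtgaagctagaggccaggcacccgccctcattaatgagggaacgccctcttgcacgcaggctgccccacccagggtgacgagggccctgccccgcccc
Polm: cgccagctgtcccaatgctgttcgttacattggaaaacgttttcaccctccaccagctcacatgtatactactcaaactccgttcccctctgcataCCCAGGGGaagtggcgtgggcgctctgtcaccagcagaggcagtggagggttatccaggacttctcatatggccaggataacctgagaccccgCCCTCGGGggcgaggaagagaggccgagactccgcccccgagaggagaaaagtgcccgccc
Fcrl1: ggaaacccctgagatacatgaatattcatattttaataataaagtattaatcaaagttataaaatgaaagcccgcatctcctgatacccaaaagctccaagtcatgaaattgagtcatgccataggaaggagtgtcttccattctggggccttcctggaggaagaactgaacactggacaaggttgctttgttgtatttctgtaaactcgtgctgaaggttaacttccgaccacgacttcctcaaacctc
Id2: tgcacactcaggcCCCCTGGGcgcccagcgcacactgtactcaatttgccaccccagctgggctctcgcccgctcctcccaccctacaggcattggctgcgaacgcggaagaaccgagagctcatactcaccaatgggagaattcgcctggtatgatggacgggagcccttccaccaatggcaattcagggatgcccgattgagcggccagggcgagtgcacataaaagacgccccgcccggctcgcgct
Vpreb1: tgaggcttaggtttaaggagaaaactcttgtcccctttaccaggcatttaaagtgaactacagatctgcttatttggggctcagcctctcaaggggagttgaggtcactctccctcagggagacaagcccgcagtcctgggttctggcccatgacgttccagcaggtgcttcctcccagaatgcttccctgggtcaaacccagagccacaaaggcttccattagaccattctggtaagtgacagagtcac

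Antigen presentation by MHC class II was higher in dKO CD43- cells in 6 of 13 members and lower in 0, with a median of 0.89. Ciita, the coactivator that drives these genes, gave 1656 ± 53.3 in dKO CD43- cells and 594 ± 27.8 in dKO CD43+ cells (3.52-fold higher). H2-DMb2, part of the peptide exchange factor, gave 2159.6 ± 89.9 in dKO CD43- cells and 393 ± 16.7 in dKO CD43+ cells (8.21-fold higher), and H2-Ob, part of its inhibitor, was 4.76-fold higher. H2-Eb1 was at 1.37, and H2-Ab1 and the invariant chain Cd74 were within 2-fold, at 0.89 and 0.77. Other detected H2-Ab1 probes were past 2-fold, at 1.312 and 1.308, so its probes disagreed on the call. H2-DMa, H2-DMb1 and the protease Ctss differed least, at -0.04, 0.17 and -0.51. The members with a difference near 0 include H2-DMa, the partner chain of the H2-DMb genes.

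NF-kB subunits and feedback genes had a median of 0.57, with 5 of 16 higher by 2-fold or more in dKO CD43- cells and 1 lower. Nfkb2, the subunit of the alternative pathway, gave 576 ± 32.1 in dKO CD43- cells and 241 ± 8.85 in dKO CD43+ cells (4.31-fold higher). Its partner Relb was at 1.58, the inhibitor Nfkbia at 1.76 and Rel at 1.35, while Nfkb1 and Rela were at -0.06 and 0.28. Traf1 was the member at least 2-fold lower, at -1.25. Immediate-early genes were at least 2-fold higher in 5 of 13 and lower in 0 (median 0.61). Jund, a subunit of AP-1, gave 945 ± 29.4 in dKO CD43- cells and 396 ± 15.8 in dKO CD43+ cells (3.24-fold higher), the phosphatase Dusp2 was at 1.58 and Egr1 at 1.41. Fos and Jun lay at -0.02 and -0.06, while Junb was at 1.17, so the AP-1 subunits differed in size.

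Homing receptors went both ways, with 5 of 15 higher by 2-fold or more in dKO CD43- cells and 5 lower. Cxcr5, the receptor that guides B cells into follicles, gave 3117 ± 161 in dKO CD43- cells and 519.8 ± 22.9 in dKO CD43+ cells (8.12-fold higher). Ccr6, the receptor of CCL20, gave 2251 ± 79.2 in dKO CD43- cells and 289.9 ± 11.5 in dKO CD43+ cells (13.9-fold higher), and Ccr7 and Gpr183, receptors that position B cells in lymphoid tissue, were at 1.97 and 1.85. Cxcr3, a chemokine receptor of activated T cells, NK cells and some dendritic cells, was 20.0-fold lower, and the integrin chain Itgb7 was at -1.84. The list median was -0.62, and the median difference of homing receptors detected on both arrays was 0.62.

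Of the BCL-2 family 2 of 12 were higher by 2-fold or more in dKO CD43- cells and 4 lower. Bcl2l1, the gene of the survival protein BCL-XL, gave 488 ± 14.3 in dKO CD43- cells and 203 ± 8.35 in dKO CD43+ cells (5.10-fold higher), and the proapoptotic gene Bmf was 4.36-fold higher. Bcl2 itself gave 403 ± 16.8 in dKO CD43- cells and 828 ± 49.3 in dKO CD43+ cells and was 2.35-fold lower, although its other detected probe differed by -0.40 only. Bok was detected in dKO CD43+ cells only and was at least 7.56-fold lower, although its other detected probe was within 2-fold, at -0.93. In the IL-7 receptor pathway, which drives the growth of pro-B cells, Il7r was at 0.00 with 5519 in dKO CD43- cells and 5666 in dKO CD43+ cells. Cish, a feedback target of STAT5, was 3.10-fold lower, the kinase gene Pim1 just reached 2-fold higher, and 10 of 12 members lay within 2-fold. Early progenitor genes were lower by 2-fold or more in 4 of 11 and higher in 0, where 10.6% of all genes were lower. The 4 were Meis1 at -2.62, Lef1 at -1.54, Ly6a at -1.31 and Notch1 at -1.07. The list median was near 0, at -0.09, and 5 of the 11 had a difference above 0.

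A joint list of deadenylation genes and BTG and TOB family genes had a median of 0.47 in dKO marrow. The 2 of 12 members at least 2-fold higher in CD43- cells were Btg1, itself a targeted gene, and Tob2. Tob2, a paralogue of the BTG proteins, gave 455 ± 16.4 in dKO CD43- cells and 295 ± 7.91 in dKO CD43+ cells, and Tob1 was just inside 2-fold at 0.96. Of the CCR4-NOT subunits, Cnot2 was at 0.46, Cnot3 at -0.01 and the catalytic subunits Cnot6l and Cnot7 at 0.57 and 0.06. No CCR4-NOT subunit reached 2-fold. Glycolysis genes were lower in 3 of 15 and higher in 0 (median -0.35), where 10.6% of all genes were lower. The 3 were the transporter Slc2a3 (-1.62), Aldoc (-1.39) and Pfkm (-1.07). Other detected Pfkm probes were within 2-fold, at -0.82 and -0.70, so its probes disagreed on the call.

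Smaller regulatory lists went both ways. Of 8 Notch pathway genes, Dtx1, a Notch target and regulator, gave 859 ± 40.8 in dKO CD43- cells and 197 ± 10.3 in dKO CD43+ cells (11.2-fold higher), the target Hes1 was at 1.04, and the receptor Notch1 and the feedback gene Nrarp lay at -1.07 and -0.96. In the MYC network 1 of 9 genes was past 2-fold: Mycl gave 233 ± 9.15 in dKO CD43- cells and 2304 ± 63.8 in dKO CD43+ cells (18.7-fold lower), and Myc itself was at -0.52. Of 6 plasma-cell genes, Xbp1, a factor of the secretory program, was at -1.36, Tnfrsf17, encoding BCMA, was detected in dKO CD43+ cells only, and Irf4 was higher as given above. Sdc1, encoding CD138, was at 0.33, but another probe, detected in dKO CD43- cells only, was at 1.20, so its probes disagreed on the call.

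Genes of DNA replication and mitosis differed little between the dKO fractions. None of 27 S-phase genes and none of 21 G2 and M genes was past 2-fold in either direction, and the medians were 0.13 and 0.23. Rfc3 and Rrm2 had the largest positive differences of the S-phase genes, 0.72 and 0.67, and Tyms, encoding thymidylate synthase, the largest negative one, with 1302 ± 47.9 in dKO CD43- cells and 2262 ± 73.5 in dKO CD43+ cells (-0.80). The replication licensing gene Mcm2 gave 1935 ± 62.3 in dKO CD43- cells and 1997 ± 61.9 in dKO CD43+ cells (0.02). Among mitotic genes Ccna2 was at 0.93, Ube2c at 0.91 and Top2a at 0.35. Of the D-type cyclins, Ccnd1 was far lower as given above, Ccnd2 was at -0.80 and Ccnd3 at 0.10, with other detected Ccnd3 probes at 1.11 and 0.50, so its probes disagreed on the call. The CDK inhibitor Cdkn1b (p27) was 2.50-fold higher and Rb1 at 1.10.

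Replication-dependent histone genes, which are transcribed in S phase, stood apart from the other genes of replication, and this list was added after their values were seen. Of 47 detected members 25 were higher by 2-fold or more in dKO CD43- cells and 0 lower (median 1.03). H4c3 gave 1847 ± 66.3 in dKO CD43- cells and 665 ± 22.1 in dKO CD43+ cells (3.44-fold higher), H4c12 2989 ± 95.4 in dKO CD43- cells and 1127 ± 49.2 in dKO CD43+ cells (1.58 on the log2 scale), and H2bc3 1596 ± 67.9 in dKO CD43- cells and 696 ± 18.8 in dKO CD43+ cells (2.76-fold). All 10 H4 genes detected were past 2-fold (1.17 to 1.78), with 9 of 12 H2B, 3 of 3 H1, 2 of 13 H2A and 1 of 9 H3 genes. Several H2A probes were near the top of the scale: H2ac20 gave 31627 in dKO CD43- cells and 33878 in dKO CD43+ cells, where the highest signal of any gene was 36077 on the CD43- array and 37115 on the CD43+ array. H2bc21 was the member with the most negative difference, at -0.92. The genes of each class are nearly identical and a probe may read several of them, so the members are not independent measurements.

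**Figure D2:**
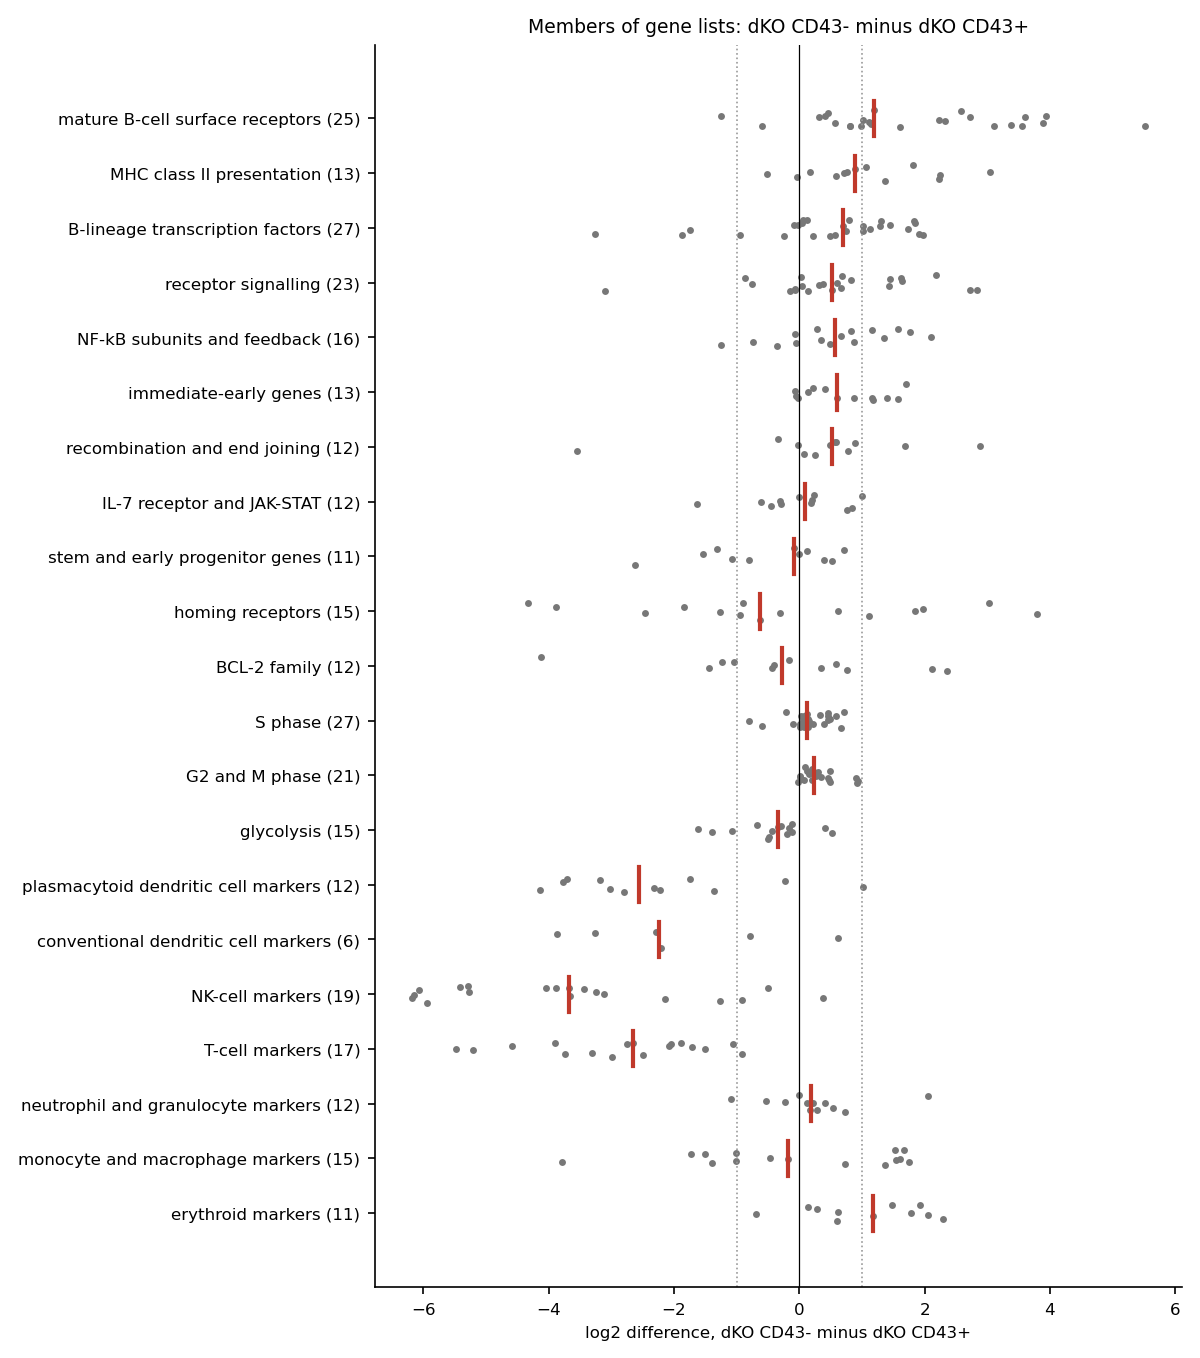
Log2 difference between dKO CD43- and dKO CD43+ cells (positive, higher in CD43-) of each detected member of 21 gene lists, with the number of members in brackets. Grey points are genes, red bars the list medians and dotted lines 2-fold. Surface receptors of B cells lie to the right (median 1.19), NK-cell and T-cell markers to the left (-3.68 and -2.66), and S-phase genes stay between the dotted lines.

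Markers of other cell types were read next, because a B220 sort can hold cells outside the B lineage. In such bulk samples fewer cells of a type and less RNA per cell cannot be told apart. Levels summed over a list are given on the normalized linear scale above its offset. NK-cell markers were at least 2-fold lower in dKO CD43- cells in 16 of 19 members and higher in 0, with a median of -3.68 (-3.06 with bounds). All 19 were detected in dKO CD43+ cells and 8 in dKO CD43- cells, and the summed level was 3521 in dKO CD43- cells against 43617 in dKO CD43+ cells. Klrd1, the CD94 chain of NK receptors, gave 648 ± 26.5 in dKO CD43- cells and 8889 ± 271 in dKO CD43+ cells (16.4-fold lower). Klra4 was not above background in dKO CD43- cells and was at least 51.0-fold lower, and Klra1 went the other way within 2-fold, at 0.38. The Klra genes are close paralogues that their probes may not separate.

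T-cell markers were at least 2-fold lower in 16 of 17 members and higher in 0 (median -2.66), with summed levels of 1650.4 in dKO CD43- cells and 15923 in dKO CD43+ cells. The T-cell receptor complex genes Cd3d and Cd3g were detected in dKO CD43+ cells only, at 1798 ± 54.3 and 1050.0 ± 33.0. Bcl11b, which defines the T lineage, was near background in dKO CD43+ cells (177) and was not detected in dKO CD43- cells. Some of these genes are shared with NK cells.

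Plasmacytoid dendritic cells carry B220, and 10 of 12 of their markers were at least 2-fold lower in dKO CD43- cells, with 1 higher (median -2.56). Siglech, a receptor of these cells, gave 1176 ± 49.2 in dKO CD43- cells and 14011 ± 428 in dKO CD43+ cells (13.7-fold lower). P2ry14 gave 624 ± 20.8 in dKO CD43- cells and 9179 ± 294 in dKO CD43+ cells (17.7-fold lower), and Bst2 was 9.05-fold lower. All 12 were detected in dKO CD43+ cells and 10 in dKO CD43- cells, and the summed levels were 12596 in dKO CD43- cells and 73824 in dKO CD43+ cells. Spib, which B cells also express, was the member that was higher, at 1.02. Of the conventional dendritic cell markers 4 of 6 were lower and 0 higher, led by Sirpa (14.6-fold lower, its other detected probe at -0.94), and their summed levels were 542 in dKO CD43- cells and 6873 in dKO CD43+ cells. Interferon-stimulated genes, several of which plasmacytoid dendritic cells express, were lower in 5 of 17 and higher in 2, with Ifitm3 at -2.38, Usp18 at -1.99 and Irf7 at -2.22. Toll-like receptor genes split, with Tlr7 5.01-fold lower and Tlr1 at least 7.29-fold higher. How much these cells contribute to the genes called lower was not tested.

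Erythroid genes were higher in dKO CD43- cells in 6 of 11 members and lower in 0 (median 1.18). Hba-a1, an alpha globin, gave 20111 ± 664 in dKO CD43- cells and 6467 ± 200.1 in dKO CD43+ cells, and the membrane protein gene Slc4a1 was 4.13-fold higher. Summed erythroid levels were 27246 in dKO CD43- cells and 10813 in dKO CD43+ cells. Monocyte and macrophage markers were higher in 6 of 15 and lower in 6. Vcam1, Spic and Slc40a1, which red pulp and erythroid-island macrophages express, were at 1.75, 1.68 and 1.52 (Spic detected in CD43- cells only), and Cd68 was 13.8-fold lower. Summed levels of the list were 3199.9 in dKO CD43- cells and 6571 in dKO CD43+ cells. Neutrophil markers differed little, with 1 of 12 higher and 1 lower (median 0.19). Retnlg gave 380.1 ± 14.9 in dKO CD43- cells and 193 ± 7.22 in dKO CD43+ cells (4.14-fold higher), while S100a8 was at 0.41 and Ltf, encoding lactoferrin, at 0.13. Of the eosinophil, basophil and mast-cell markers 2 of 5 were higher, Prg3 and Il5ra (at least 2.30-fold), with summed levels of 2108 in dKO CD43- cells and 345 in dKO CD43+ cells, and 0 of 8 megakaryocyte markers on the array were detected.

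The same fractions of WT marrow, measured on arrays that share no sample with the dKO pair, gave 670 of 8539 genes at least 2-fold higher in CD43- cells (7.85%) and 954 lower (11.2%). Over the 8072 genes compared in both genotypes the differences correlated across genes with Pearson's r of 0.888 and Spearman's rho of 0.793. Genes of 1 array pair are not independent, and all 4 arrays were normalized together. Of the 482 genes higher in dKO CD43- cells 349 were also higher in WT CD43- cells (72.4% of the dKO and 60.1% of the WT genes), and of 842 lower in dKO 683 were also lower in WT (81.1% and 75.6%). Over all 8072 genes, 581 were at least 2-fold higher in WT CD43- cells and 904 lower. The sign was the same in WT for 465 of the 482 and 835 of the 842. The share with the same sign over all 8072 genes was not counted. The SD of the differences in dKO was 0.904 of that in WT. In 1 gene, Dhx40, both genotypes passed 2-fold in opposite directions (1.06 in dKO, -1.04 in WT), with each value resting on detection on 1 array.

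**Figure D3:**
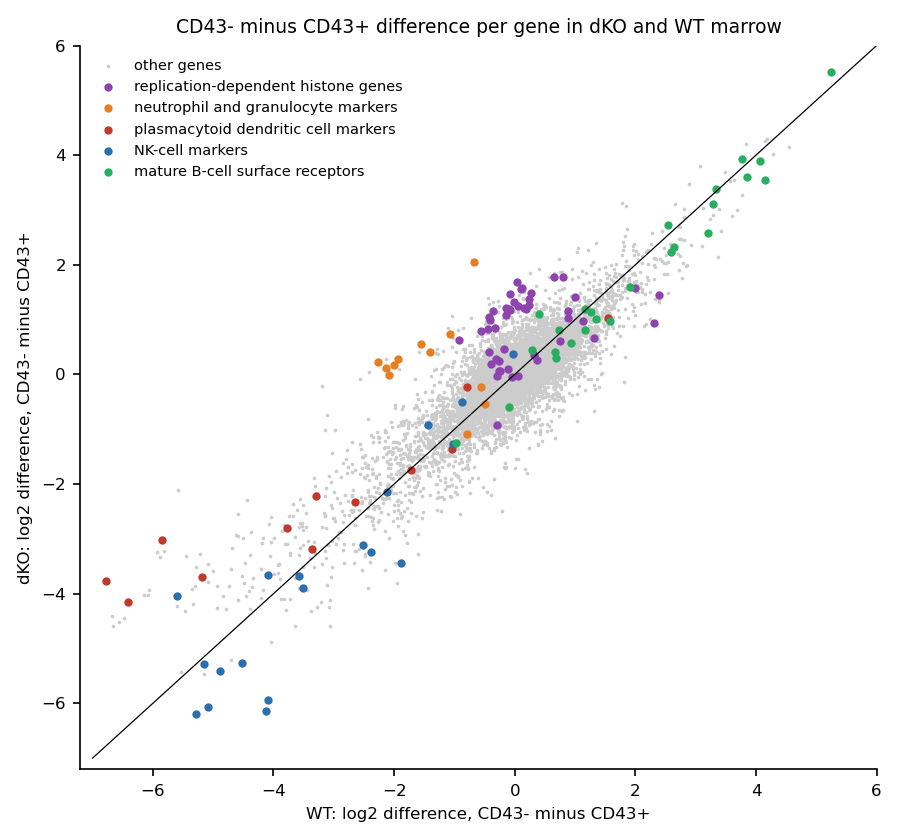
Log2 difference between CD43- and CD43+ cells (positive, higher in CD43-) in dKO marrow (vertical axis) against WT marrow (horizontal axis). Points are genes compared in dKO marrow (8495 genes), of which 8072 were also compared in WT marrow. Points may include genes not above background on either WT array, whose WT difference is not informative. The line marks equal differences, and coloured points are members of 5 lists. B-cell receptors (green) lie near the line, neutrophil markers (orange), histone genes (purple) and several plasmacytoid dendritic cell markers (red) above it.

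The dKO difference exceeded the WT difference by at least 2-fold in 236 of 8072 genes (2.92%) and fell short of it by as much in 121 (1.5%). These counts have no replicate check, and without background correction they were 58 and 2. Over all 8072 genes the median dKO minus WT difference was -0.03. The share of all genes with a higher difference in dKO than in WT was not counted. The largest excess was in Cd209d, a C-type lectin gene, at 3.47 (bead SE 0.27). It gave 317 ± 17.7 in dKO CD43- cells and 1030.4 ± 38.0 in dKO CD43+ cells, against 161 ± 5.37 (not above background) in WT CD43- cells and 1741 ± 75.0 in WT CD43+ cells. Siglech gave 228 ± 11.4 in WT CD43- cells and 11233 ± 375 in WT CD43+ cells, so its CD43+ signals were of like size in the genotypes and its CD43- signal was higher in dKO. Klk1, a tissue kallikrein that plasmacytoid dendritic cells express, had an excess of 2.83, with 1049 in dKO CD43- cells and 7711 in dKO CD43+ cells, against 256 in WT CD43- cells and 8017 in WT CD43+ cells. Its paralogues Klk1b27, Klk1b5 and Klk1b4 were at 2.69, 2.60 and 2.55, and their probes may read one another's transcripts. Ccnd1 was 22.8-fold lower in dKO CD43- and 94.9-fold lower in WT CD43- cells, an excess of 2.06. The excess was smaller with its other detected probes, at -4.31 in dKO and -5.44 in WT, and at -4.56 in dKO and -5.97 in WT. Their WT CD43- signals were 147 (not above background) and 186.

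Across their list, 9 of 12 plasmacytoid dendritic cell markers had an excess above 0 and 5 were past 2-fold, the median difference being -2.56 in dKO and -3.33 in WT. The median excess was 0.78, and 0.30 in the authors' deposited log2 values. Summed levels were 12596 in dKO CD43- cells and 73824 in dKO CD43+ cells, against 7962 in WT CD43- cells and 64737 in WT CD43+ cells. The neutrophil markers had a median of 0.19 in dKO and -1.48 in WT, with 9 of 12 past 2-fold in excess. Their summed level was 9399 in dKO CD43- cells and 7175 in dKO CD43+ cells, against 11123 in WT CD43- cells and 34139.9 in WT CD43+ cells, so the array that stood apart was WT CD43+. S100a9, for example, gave 2645 in dKO CD43- cells and 1928 in dKO CD43+ cells, against 2299 in WT CD43- cells and 6498 in WT CD43+ cells.

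S-phase genes had a median of 0.13 in dKO and -0.52 in WT, and 26 of 27 had a higher difference in dKO than in WT. Their median dKO minus WT difference was 0.67, against -0.03 over all 8072 genes. Mcm7 had the values 724 in dKO CD43- cells and 557 in dKO CD43+ cells, against 486 in WT CD43- cells and 664 in WT CD43+ cells, and Cdc45, a helicase component, 882 and 717 in dKO CD43- and CD43+ cells, against 428 in WT CD43- cells and 662 in WT CD43+ cells. G2 and M genes showed medians of 0.23 in dKO and -0.23 in WT. The histone genes had medians of 1.03 in dKO and -0.01 in WT, with a higher difference in dKO than in WT in 37 of 47 (all 10 H4, 9 of 12 H2B, 9 of 13 H2A, 7 of 9 H3 and 2 of 3 H1 genes). The median dKO minus WT difference of the histone genes was 0.97. In WT 6 of 47 were at least 2-fold higher in CD43- cells. Both dKO arrays had higher H4 signals than the WT arrays and dKO CD43- the highest, with summed H4 signals of 23911 in dKO CD43- cells and 9664 in dKO CD43+ cells, against 5554 in WT CD43- cells and 4944 in WT CD43+ cells. H4c12 gave 562 ± 23.1 in WT CD43- cells and 531 ± 21.1 in WT CD43+ cells, and H1f2 was among the members with a higher difference in WT, with 3996 ± 106 in dKO CD43- cells and 1607 ± 45.1 in dKO CD43+ cells, against 6699 ± 213 in WT CD43- cells and 1363 ± 37.7 in WT CD43+ cells.

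Medians of the B-lineage lists were positive in both genotypes. Surface receptors were at 1.19 in dKO and 1.58 in WT, receptor signalling at 0.52 in dKO and 0.43 in WT, MHC class II at 0.89 in dKO and 0.67 in WT, and transcription factors at 0.69 in dKO and 1.08 in WT. Gene by gene, the dKO difference was above the WT one in 7 of 24 surface receptors (median dKO minus WT -0.26), 6 of 22 receptor signalling genes (-0.13), 7 of 13 MHC class II genes (0.02) and 5 of 27 transcription factors (-0.30). Over all 8072 genes the median dKO minus WT difference was -0.03. Ebf1 differed by 1.01 in dKO and 1.08 in WT, and Rag1 by 0.89 in dKO and 1.80 in WT. Vpreb1 was 3.09-fold lower in dKO CD43- cells and 6.50-fold lower in WT CD43- cells, with 5053 and 14509 in dKO CD43- and CD43+ cells, against 2217 in WT CD43- cells and 13549.6 in WT CD43+ cells. Id2 had the opposite pattern, with a difference of -3.27 in dKO and -1.60 in WT, and so did the NK receptor gene Klre1 (-6.14 in dKO, where it was detected in CD43+ cells only, and -4.12 in WT). Whether any of these differences between genotypes exceeds the spread between animals was not tested.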

How the data were processed

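Total RNA from 4 sorted samples was measured on Illumina MouseRef-8 arrays, 1 array for each genotype and fraction, and each array was assigned from its title. Per the file headers, the authors deposited an unnormalized GenomeStudio table with a bead intensity per probe, the SD and number of beads, and a detection score, which is a fraction from 0 to 1. The authors' deposited log2 values, for which the submitters' processing notes name RMA, served as an alternative. Their medians were 3.77 in dKO CD43-, 3.79 in dKO CD43+, 3.77 in WT CD43- and 3.78 in WT CD43+ cells. The settings of RMA are not known here.

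Intensities of all 4 arrays were corrected and normalized together with neqc in limma 3.58.1 (R 4.3.3), that is normexp with an offset of 16, quantile normalization and log2. Such an offset makes fold changes of dim genes smaller. Of several probes for a gene, the brightest on average was used. Of 18138 identifiers 14300 matched a RefSeq symbol and 2885 a synonym (GRCm38.p6), and 953 kept the file's name. Median bead numbers per probe were 38 to 39 and median bead SEs 4.00% to 4.06%. Precision is limited by having 1 array per group.

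The comparisons were dKO CD43- against dKO CD43+ cells, the same in WT, and the difference of both differences, called by size at 2-fold with no test. Background correction, normalization and the 2-fold call were run on simulated arrays, with known changes larger than 2-fold in bright probes only. Dim genes, bounds, the choice of probe and the difference between genotypes were not simulated. The members and lists were chosen with earlier results of these data known. Named were the targeted genes, sort markers, Ebf1, Pax5, the surrogate light chain, the 15 most positive and 15 most negative genes with an unchanged sign in RMA, the 10 with the largest difference between genotypes in each direction, and of each list up to 8 members with the largest and 3 with the smallest difference. The histone list and other members were named after their values were seen. Alternatives were median scaling, normalization of the dKO pair alone, no background correction, an offset of 50, RMA, the mean over probes, other detection filters and bounds. A few members counted in the lists are not reported here by name.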

Additional observations from a re-analysis of the deposited data

Results flagged for a closer look

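Several results took opposite directions in the genotypes, and none of these differences between genotypes was tested. Dhx40 differed between CD43- and CD43+ cells by 1.06 in dKO and by -1.04 in WT marrow, which is 2.11 between the genotypes, and it was detected on 1 array of each pair. The list median was above 0 in dKO and below 0 in WT for S-phase genes (0.13 in dKO, -0.52 in WT), G2 and M genes (0.23 in dKO, -0.23 in WT), D-type cyclins and CDK inhibitors (0.27 in dKO, -0.28 in WT), neutrophil and granulocyte markers (0.19 in dKO, -1.48 in WT), eosinophil, basophil and mast-cell markers (0.47 in dKO, -1.12 in WT, over 5 genes) and histone genes (1.03 in dKO, -0.01 in WT, a list added after the values were seen). Notch pathway genes had the opposite signs (-0.21 in dKO, 0.23 in WT), but the median difference of Notch pathway genes in dKO was 0.07 in RMA. Under median scaling the median of the dKO minus WT differences was 0.65 for S-phase genes, 2.02 for neutrophil markers and 0.92 for histone genes, and in the authors' deposited log2 values it was 0.72, 2.17 and 0.96.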

How the results depend on the processing

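Counts of dKO genes at least 2-fold higher and lower in CD43- cells (515 and 901) were 208 and 391 without background correction, 335 and 625 with an offset of 50, and 397 and 499 among the 7308 genes detected on both arrays. They stayed within 1.5 times under median scaling (461 and 1036, which moved the median of all genes to 0.00), normalization of the dKO pair alone (542 and 944), RMA (697 and 1071), the mean over probes (522 and 877), other detection filters (538 and 901) and bounds (458 and 683). Counts of genes with a dKO minus WT difference of at least 2-fold (236 higher, 121 lower) were 58 and 2 without background correction, 113 and 30 with an offset of 50, 408 and 288 in RMA, 127 and 41 among genes detected on all 4 arrays, and 191 and 149 under median scaling. These alternatives were added after seeing the data. No difference of a called named gene changed sign under the 6 other normalizations and probe rules. For the 15 most positive and 15 most negative genes this was fixed in advance for RMA, because they were chosen by an unchanged sign there. Many other named genes were chosen for a large difference. Of 1968 values over all 328 named genes, called or not, 73 dropped below 2-fold and 29 moved past it. Of 300 list medians 17 moved by over 1.5 times. The median difference of homing receptors was -0.62, but 0.62 among genes detected on both arrays. The median difference of NK-cell markers ranged from -4.75 in RMA to -1.82 without background correction. No paired analysis was possible because each group held 1 array. For the same reason no array could be left out, and genes close to background on both arrays have only shrunken or bounded differences.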
